A study of Homo sapiens with 6 samples.

Results

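NF-kB is a family of dimeric transcription factors, and the RNA of 10 genes of its core and its feedback is described here: 4 subunits (NFKB1, NFKB2, RELA and RELB), 3 proteins of the IkB type (NFKBIA, NFKBIE and NFKBIZ) and 3 further genes known to be induced by NF-kB (TNFAIP3, BIRC3 and TNFAIP2). The 10 genes were taken by name from 45019 rows in each deposited file, and all 10 were found once and passed the filter on low values. The cells were MDA-MB-468, an established triple-negative, basal-like breast cancer line. In one group the medium held DETA/NO at 100 µM, which gives off nitric oxide over hours, for 10 days, with replating every 48 h and addition of the compound 4 h after each plating. The other group was labelled untreated at day 10, and no vehicle is named for it. Both groups come from 1 cell line, and the protocol states that cells of a replicate were pooled at each replating.

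Each group has 3 labelled samples, but DETA/NO replicates 1 and 2 had the same value in every row, under the same column name. They count as 1 library, called DETA/NO library 1 and 2, which leaves n = 2 DETA/NO and n = 3 untreated libraries. Nothing in the labels says that the samples came from separate cultures, so p-values here reflect library-to-library spread alone, which may be technical. Library totals were 28897422 and 34210950 reads in the DETA/NO libraries, against 32872785 to 34637343 reads in the untreated libraries. With 5 libraries an exact permutation test allows only 10 arrangements and a smallest 2-sided p of 0.2, so single genes were tested in a fit across all genes.

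In resting cells the IkB proteins hold NF-kB dimers in the cytoplasm. Ligands such as tumour necrosis factor activate the IkB kinases, IkB is degraded, and the freed dimers enter the nucleus and bind kB motifs in DNA. Among the genes they switch on are their own inhibitors and precursors, and this feedback ends the signal. Only RNA was measured here, so IkB degradation and nuclear entry were not observed, and in bulk RNA fewer cells expressing a gene and less RNA per cell cannot be told apart.

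Under DETA/NO the feedback enzyme TNFAIP3 was 1.85-fold higher, and the 4 subunit genes were 1.10- to 1.25-fold higher. TNFAIP2 was at 0.686 of its untreated level and BIRC3 at 0.894. The 3 IkB genes NFKBIA, NFKBIE and NFKBIZ did not pass the test. In all, 5 of the 10 genes were higher and 2 lower at an adjusted p under 0.05 in limma (Benjamini-Hochberg over 16409 genes). Of all genes tested, 43.4% were called, 21.7% higher and 21.7% lower. The median size of the log2 fold change was 0.16 for the 10 genes and 0.18 for all tested genes, and the signed medians were 0.08 and -0.00016. Most of the 10 genes therefore moved no further than a typical gene of these libraries, and TNFAIP3 and TNFAIP2 lay further out: 2.90% of all genes had a log2 fold change at or above that of TNFAIP3, and 7.02% had one at or below that of TNFAIP2. Normalized read counts, the authors' counts divided by 1 factor per library, are used throughout, and fold changes are on the log2(value + 1) scale.

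**Figure D1:**
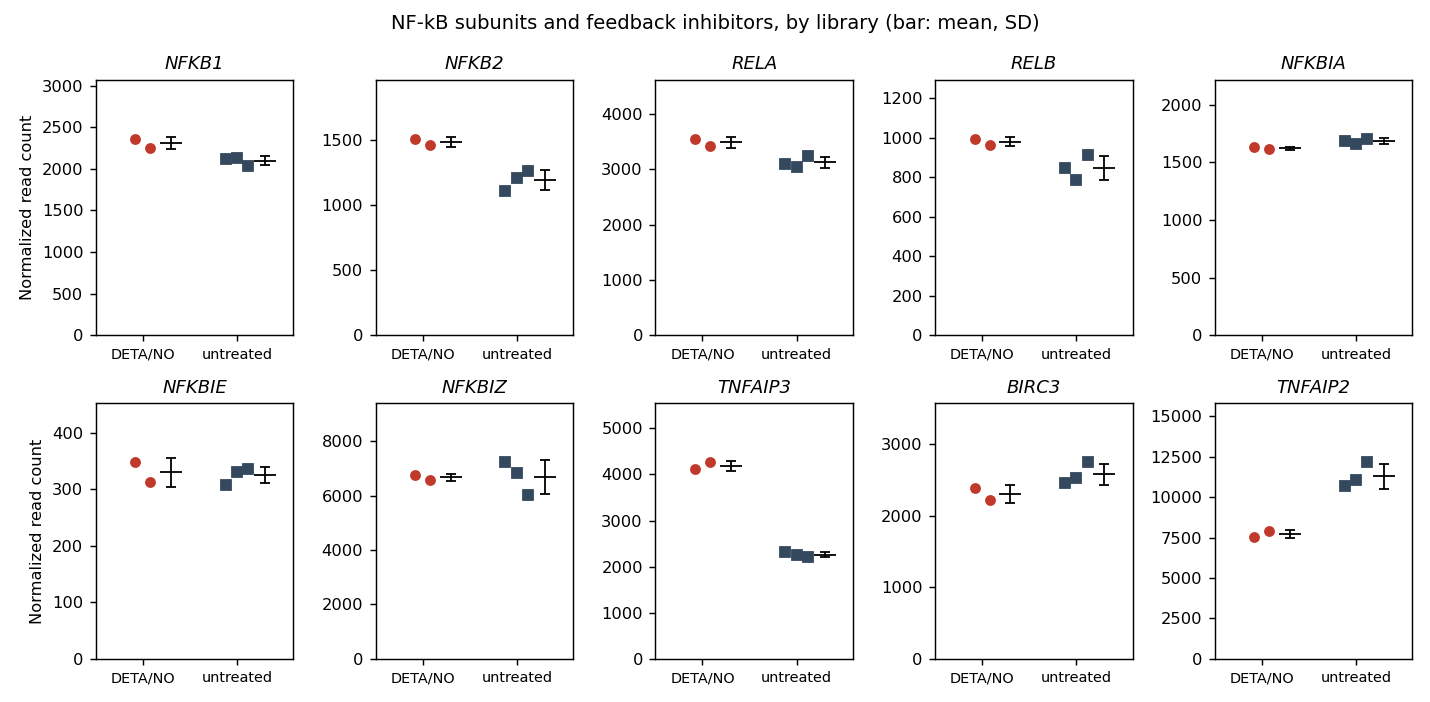
Normalized read counts of the 10 genes in each library, with DETA/NO libraries as red circles and untreated libraries as dark squares; horizontal bars with whiskers give the mean and SD, and each axis starts at 0. TNFAIP3 is at 4116 and 4263 in DETA/NO libraries, above all untreated libraries, whereas TNFAIP2 is at 7561 and 7905, below all of them.

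Promoter sequences are shown for 6 of the genes because the kB motif is the element through which NF-kB acts on its own feedback genes. RefSeq windows (GRCh38.p14, 250 bases before to 50 after a start site) were found for 8 of the 10 genes, 13 windows in all, and RELB and NFKBIE had none. The kB consensus was searched on both strands, together with a stricter form of it, which leaves only the fifth base free (GGGAATTTCC in NFKB1 is an example) and every match of which is also a consensus match. Below, the 250 bases before the start are printed 5′ to 3′ on the gene's strand, and capitals mark consensus matches on either strand.
TNFAIP3: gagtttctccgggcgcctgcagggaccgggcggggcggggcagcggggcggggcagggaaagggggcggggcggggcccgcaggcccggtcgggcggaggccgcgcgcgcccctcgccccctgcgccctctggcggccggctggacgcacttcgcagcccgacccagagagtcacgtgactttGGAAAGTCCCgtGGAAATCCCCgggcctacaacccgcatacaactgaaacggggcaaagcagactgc
NFKBIA: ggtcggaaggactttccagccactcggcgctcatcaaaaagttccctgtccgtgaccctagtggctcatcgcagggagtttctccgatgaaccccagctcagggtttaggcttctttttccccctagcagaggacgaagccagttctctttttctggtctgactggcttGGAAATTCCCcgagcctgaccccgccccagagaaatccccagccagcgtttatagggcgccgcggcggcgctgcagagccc
NFKB1: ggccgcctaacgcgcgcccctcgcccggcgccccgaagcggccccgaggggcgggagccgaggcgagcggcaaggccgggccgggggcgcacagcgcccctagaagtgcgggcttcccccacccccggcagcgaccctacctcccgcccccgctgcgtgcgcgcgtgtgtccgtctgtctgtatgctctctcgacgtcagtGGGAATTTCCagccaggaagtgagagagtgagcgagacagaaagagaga
NFKB2: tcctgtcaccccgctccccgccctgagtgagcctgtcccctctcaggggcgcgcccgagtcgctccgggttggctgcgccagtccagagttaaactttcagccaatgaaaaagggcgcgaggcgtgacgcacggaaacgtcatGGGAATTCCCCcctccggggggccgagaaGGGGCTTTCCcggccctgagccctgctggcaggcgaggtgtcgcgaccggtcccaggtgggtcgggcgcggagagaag
BIRC3: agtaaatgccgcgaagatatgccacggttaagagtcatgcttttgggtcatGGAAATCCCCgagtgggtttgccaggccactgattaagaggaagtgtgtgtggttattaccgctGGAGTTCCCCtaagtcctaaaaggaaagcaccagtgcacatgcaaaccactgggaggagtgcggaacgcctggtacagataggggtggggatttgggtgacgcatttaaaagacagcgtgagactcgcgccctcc
TNFAIP2: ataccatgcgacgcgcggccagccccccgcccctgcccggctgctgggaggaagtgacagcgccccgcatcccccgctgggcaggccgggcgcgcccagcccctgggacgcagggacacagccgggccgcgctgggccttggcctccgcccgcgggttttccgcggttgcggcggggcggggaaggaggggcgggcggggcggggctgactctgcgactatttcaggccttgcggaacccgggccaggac
These stretches lie at chr6:137867009-137867258 (plus strand, TNFAIP3), chr14:35404750-35404999 (minus strand, NFKBIA), chr4:102501109-102501358 (plus strand, NFKB1), chr10:102394328-102394577 (plus strand, NFKB2), chr11:102317234-102317483 (plus strand, BIRC3) and chr14:103123211-103123460 (plus strand, TNFAIP2).

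A consensus match was present in 6 of the 8 genes with a window, against 13.3% of 27305 genes with a window of this length, and the stricter motif in 5 of 8, against 0.678%. TNFAIP3 held 2 matches close together, 67 to 58 and 55 to 46 bases before the start, of which the one farther from the start is of the stricter type. NFKB1 held 1 of the stricter type, 49 to 40 bases before its first start, and NFKBIA held 1 at 81 to 72. At its second start NFKB2 held 2 overlapping matches and 1 more nearer the start, all outside the stricter type. The third window of NFKB2, not printed, held a consensus match and 1 of the stricter type, 21 to 12 bases before that start. NFKBIZ, not printed either, held 1 of the stricter type at 223 to 214 bases before its first start and a consensus match at its second. BIRC3 held 2 consensus matches and none of the stricter type. RELA, in 2 windows, and TNFAIP2 held no match, which says only that these letters are not in these windows. Of the 6 genes with a match, TNFAIP3, NFKB1 and NFKB2 were higher, BIRC3 was lower, and NFKBIA and NFKBIZ were not called. Of those without a match, RELA was higher and TNFAIP2 lower. The genes were chosen as known parts of NF-kB feedback, several of them described as its targets, so these shares are a description of the set.

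**Figure D2:**
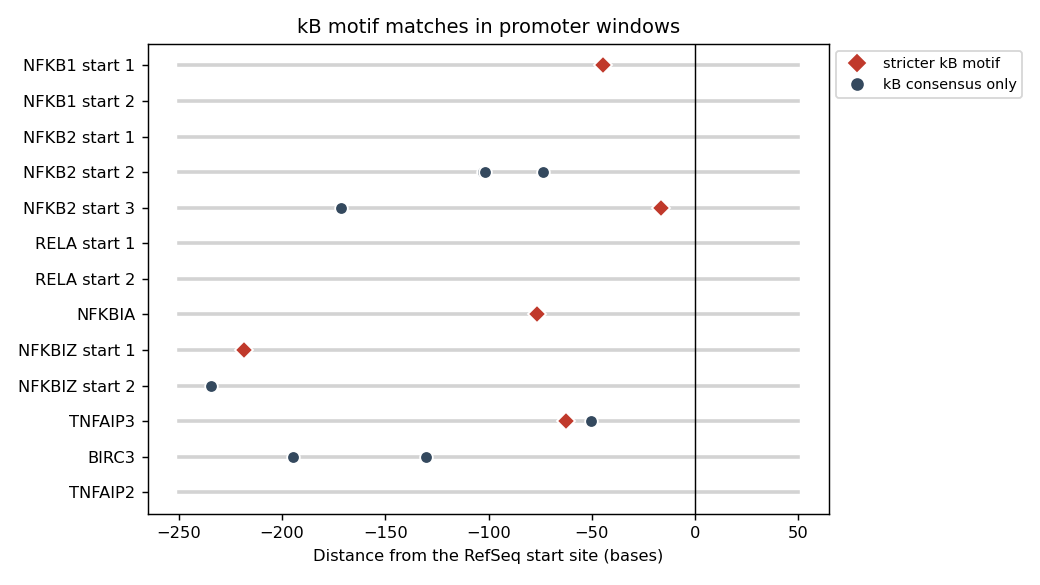
Position of kB motif matches in the 13 RefSeq promoter windows, with distance from the start site in bases on the horizontal axis and 1 window per row; grey lines are the windows, red diamonds the stricter motif and dark circles consensus-only matches. TNFAIP3 has its pair of matches close to the start, and the RELA and TNFAIP2 rows are empty.

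The gene with the largest change was TNFAIP3, on chromosome 6 at 137867188 to 137883312 (GRCh38, GENCODE 29). It encodes a ubiquitin-editing enzyme that removes or adds ubiquitin on receptor-bound signalling proteins and so shuts off NF-kB activation. TNFAIP3 had 4116 and 4263 normalized reads in the DETA/NO libraries, against 2318, 2254 and 2206 in the untreated libraries. The groups lay far apart. On the log2 scale the DETA/NO libraries differed from each other by 0.05, and the untreated libraries spanned 0.07. The log2 fold change was 0.89 ± 0.038 (SE; limma adjusted p = 1.25e-18). It stayed between 0.86 and 0.92 in the 16 alternative fits, which include leaving out each library. The adjusted p of TNFAIP3 varied with the fit, and was 0.00321 in limma without its mean-variance trend and robust option.

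NFKBIA encodes IkB-alpha, the inhibitor best known for rapid resynthesis after NF-kB activation. It lies on chromosome 14 at 35401511 to 35404749. NFKBIA had 1629 and 1611 normalized reads in the DETA/NO libraries, against 1687, 1657 and 1705 in the untreated libraries. Both DETA/NO libraries were below all untreated ones, by a small amount that did not pass the test (log2 fold change -0.05 ± 0.044, adjusted p = 0.338). Separation of this kind was common: 61.2% of all tested genes had both DETA/NO libraries on 1 side of all untreated libraries, as did 8 of the 10 genes described here. Within a library, where scaling plays no part, there were 2.53 and 2.65 TNFAIP3 reads per NFKBIA read in the DETA/NO libraries, against 1.37, 1.36 and 1.29 in the untreated libraries. The promoters of both genes, printed above, hold a match of the stricter kB motif.

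Neither of the remaining IkB genes passed the test. NFKBIE, on chromosome 6 at 44258166 to 44265788, encodes IkB-epsilon, a cytoplasmic inhibitor that responds more slowly than IkB-alpha. It had 347.9 and 312.4 normalized reads in the DETA/NO libraries, against 308.7, 330.6 and 336.4 in the untreated libraries. The groups overlapped (log2 fold change 0.02 ± 0.088, adjusted p = 0.876), and NFKBIE was the least abundant of the 10. NFKBIZ, on chromosome 3 at 101827991 to 101861022, encodes IkB-zeta, a nuclear IkB protein that assists transcription of a subset of NF-kB targets such as IL6. It had 6768 and 6571 normalized reads in the DETA/NO libraries, against 7225, 6828 and 6009 in the untreated libraries. The DETA/NO values sat inside the untreated range, and the log2 fold change was 0.00024 ± 0.090 (adjusted p = 0.998). Untreated library 3 was the lowest, and leaving it out put NFKBIZ at -0.07 (log2) and adjusted p = 0.0484.

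The 4 subunit genes all rose, each by a small amount. NFKB1 and NFKB2 encode precursor proteins that are trimmed to DNA-binding subunits and that also act as inhibitors while uncut. NFKB2, on chromosome 10 at 102394110 to 102402529, belongs to the non-canonical branch and is a well-known NF-kB target. It had 1507 and 1457 normalized reads in the DETA/NO libraries, against 1108, 1206 and 1256 in the untreated libraries. The groups were apart, and the log2 fold change of 0.32 ± 0.053 (adjusted p = 9.46e-06) kept its call in the 16 alternative fits.

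NFKB1, on chromosome 4 at 102501329 to 102617302, had 2363 and 2257 normalized reads in the DETA/NO libraries, against 2118, 2137 and 2038 in the untreated libraries. The groups did not overlap, at a log2 fold change of 0.14 ± 0.041 (adjusted p = 0.00678). NFKB1 lost its call (adjusted p = 0.120) when DETA/NO library 1 and 2 was left out. The NFKB2 to NFKB1 ratio of reads within a library was 0.638 and 0.645 in the DETA/NO libraries, against 0.523, 0.564 and 0.616 in the untreated libraries. The DETA/NO ratios were the highest, with untreated library 3 close behind.

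RELA and RELB carry the transactivation domains that NFKB1 and NFKB2 lack. RELA, on chromosome 11 at 65653596 to 65663094, is the main activating subunit of the canonical pathway. It had 3556 and 3423 normalized reads in the DETA/NO libraries, against 3097, 3041 and 3235 in the untreated libraries. The groups were apart (log2 fold change 0.16 ± 0.038, adjusted p = 0.000837). RELB, on chromosome 19 at 45001430 to 45038198, pairs with the NFKB2 product in the non-canonical pathway. It had 995.0 and 962.9 normalized reads in the DETA/NO libraries, against 844.9, 784.8 and 910.3 in the untreated libraries. The nearest values of the groups were 962.9 and 910.3, a smaller gap than the untreated range. The log2 fold change of RELB was 0.21 ± 0.061 (adjusted p = 0.00521), and leaving out untreated library 2 gave adjusted p = 0.0579, as leaving out DETA/NO library 1 and 2 gave 0.0528. The RELB to RELA ratio of reads was 0.280 and 0.281 in the DETA/NO libraries, against 0.273, 0.258 and 0.281 in the untreated libraries, so that the ratios overlapped.

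BIRC3 and TNFAIP2, both known as tumour necrosis factor-induced genes, were lower. BIRC3, on chromosome 11 at 102317450 to 102339403, encodes a ubiquitin ligase of the inhibitor of apoptosis family that acts at the tumour necrosis factor receptor and restrains the non-canonical pathway. It had 2397 and 2217 normalized reads in the DETA/NO libraries, against 2466, 2531 and 2749 in the untreated libraries. DETA/NO library 1 and 2 lay close under the lowest untreated library. The log2 fold change was -0.16 ± 0.045 (adjusted p = 0.00489), which became -0.11 (adjusted p = 0.126) when DETA/NO library 3 was left out.

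TNFAIP2, on chromosome 14 at 103123442 to 103137439, encodes a protein linked to membrane tubes between cells. TNFAIP2 had 7561 and 7905 normalized reads in the DETA/NO libraries, against 10670, 11053 and 12153 in the untreated libraries. The gap between groups was wide, and the log2 fold change was -0.54 ± 0.049 (adjusted p = 5.1e-06). It kept its call in the 16 alternative fits, between -0.58 and -0.49. There were 1.84 and 1.85 TNFAIP2 reads per TNFAIP3 read in the DETA/NO libraries, against 4.60, 4.90 and 5.51 in the untreated libraries. TNFAIP3 reads per BIRC3 read numbered 1.72 and 1.92 in the DETA/NO libraries, against 0.940, 0.891 and 0.803 in the untreated libraries. Neither ratio overlapped between the groups.

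With limma run without its mean-variance trend and robust option, 29.0% of all genes and 3 of the 10 genes were called. These were TNFAIP3, NFKB2 and TNFAIP2, with adjusted p of 0.00321, 0.0326 and 0.0118. NFKB1, RELA, RELB and BIRC3 then had adjusted p of 0.0866, 0.0692, 0.104 and 0.153. edgeR's quasi-likelihood test on recovered reads called 42.7% of all genes and 7 of the 10, and DESeq2 called 33.2% and 7.

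**Figure D3:**
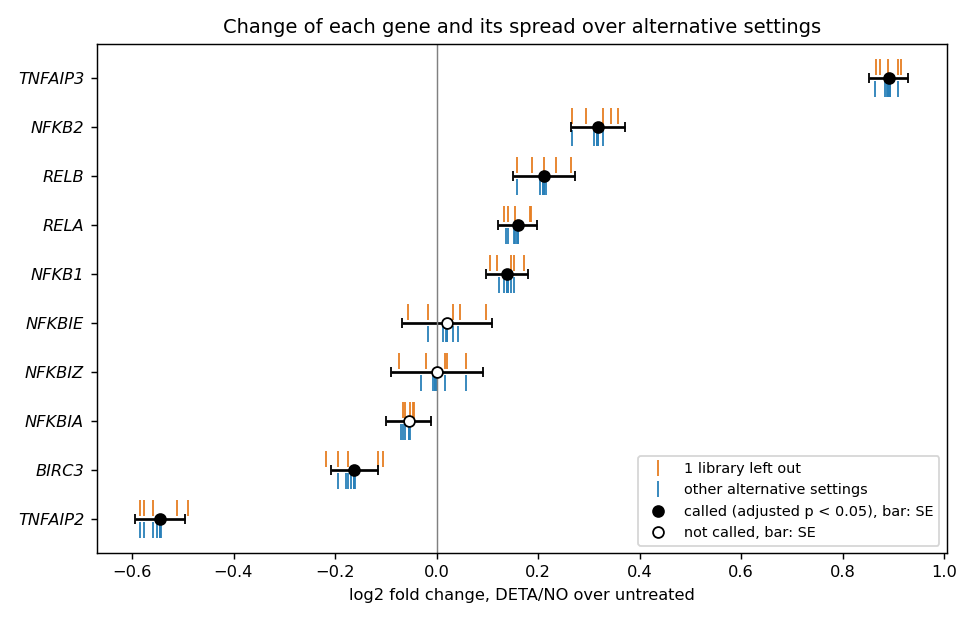
Log2 fold change of DETA/NO over untreated for each of the 10 genes (circles, filled where the adjusted p was under 0.05, with SE bars), with orange ticks for fits that leave out 1 library and blue ticks for the other alternative settings. TNFAIP3 at 0.89 and TNFAIP2 at -0.54 stand clear of 0 in every fit, and the ticks of NFKBIE and NFKBIZ fall on both sides of 0.

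Levels of different genes were compared per kilobase of merged exon length in GENCODE 29 (basic set), since the annotation used for counting was not given in the sources used here. TNFAIP2 had the highest level, with 1651 ± 51.9 normalized reads per kilobase in the DETA/NO libraries (SD, n = 2), against 2411 ± 164 in the untreated libraries (SD, n = 3). NFKBIZ followed with 1591 ± 33.2 under DETA/NO, against 1596 ± 148 untreated. TNFAIP2 and NFKBIZ did not overlap in the untreated libraries but did in the DETA/NO libraries. RELA came next in both groups, with 1030 ± 27.7 under DETA/NO, against 922.5 ± 29.4 untreated. TNFAIP3 had 884.2 ± 21.8 under DETA/NO, against 476.9 ± 11.8 untreated. NFKBIA had 852.7 ± 6.48 under DETA/NO, against 885.8 ± 12.8 untreated. On these lengths TNFAIP3 was above NFKBIA under DETA/NO and below it in untreated cells, without overlap of the libraries in either group. The 2 levels were close under DETA/NO, so their order there depends on the exon lengths used, which may differ from those of the features counted. RELB, NFKB1, NFKB2 and BIRC3 formed a middle group, with means from 333.8 to 425.6 under DETA/NO and from 323.0 to 379.8 untreated, in which NFKB1 and RELB overlapped in both groups. NFKBIE was lowest, with 127.9 ± 9.73 under DETA/NO, against 126.0 ± 5.66 untreated. In both groups TNFAIP2 and NFKBIZ were above RELA and the other 7 genes below it.

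Other genes of the pathway were counted in lists by role, to be read against 21.7% of all tested genes higher and 21.7% lower. Of 12 NF-kB and IkB family genes, all tested, 7 rose and 0 fell (median log2 fold change 0.15, against -0.00016 for all tested genes). Besides the 4 subunits above, these were REL, the remaining subunit gene (0.18), NFKBID, a nuclear IkB gene (0.36), and NFKBIL1, an IkB-like gene (0.37). NFKBID lost its call when DETA/NO library 3 was left out (adjusted p = 0.124), and leaving out untreated library 3 added NFKBIZ as 1 gene that fell. NFKBIB and BCL3, further IkB genes, were not called (log2 fold changes of 0.11 and -0.19). The number of family genes that rose was 6 without untreated library 2 and 8 without untreated library 3.

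Ligands come first in the signalling chain, and 6 of 15 passed the filter, of which 2 rose and 3 fell (median log2 fold change -0.22). TNF, the best-known activator of the pathway, had 136 ± 6.14 normalized reads under DETA/NO (SD, n = 2), against 98.3 ± 8.51 untreated (SD, n = 3), a log2 fold change of 0.47. LTB, a lymphotoxin subunit, rose by 1.22. The death ligand TNFSF10 (-0.62), TNFSF15 (-0.26) and the B cell survival factor TNFSF13B (-0.54) fell. Only 1 ligand rose when either DETA/NO library was left out: LTB lost its call in the absence of library 1 and 2 (adjusted p = 0.0707) and TNF in that of library 3 (adjusted p = 0.0627). Only 1 fell when DETA/NO library 3 or untreated library 3 was left out, TNFSF15 and TNFSF13B having lost their calls. TNFSF15 also lost its call without untreated library 2 (adjusted p = 0.0793) and on omission of DETA/NO library 1 and 2 (0.0718), and TNFSF13B on omission of untreated library 1 (0.0818). Both lost it in DESeq2 (0.102 for TNFSF15 and 0.142 for TNFSF13B) and in limma without trend and robust option (0.0837 for TNFSF15 and 0.105 for TNFSF13B).

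Of 15 receptor genes tested, 8 fell and 2 rose, where 21.7% of all tested genes were called in each direction (median log2 fold change -0.22). The number that fell was 6 without untreated library 1 or untreated library 2, and 8 without untreated library 3. TLR5, the flagellin sensor, had 389 ± 14.2 normalized reads under DETA/NO, against 774 ± 55.1 untreated (log2 fold change -0.99). The lipopeptide sensor gene TLR1 (-0.40) and the interleukin 1 receptor gene IL1R1 (-0.62) also fell. The death receptor gene TNFRSF21 (0.73) and TNFRSF12A, the TWEAK receptor gene (0.54), rose.

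Of 20 tested IkB kinase and upstream kinase genes, 4 rose, 3 fell and 13 were not called (median 0.03), so that neither direction exceeded the 21.7% of all tested genes. IRAK1, a kinase of the toll-like receptor pathway, rose by 0.31, RIPK2, a kinase downstream of NOD receptors, by 0.34 and TAB3, a partner of the kinase TAK1, by 0.35. TANK, a scaffold for IkB kinase-related enzymes (-0.51), and the kinase gene IRAK4 (-0.31) fell. IKBKB, which encodes a catalytic IkB kinase, stood at -0.11 (adjusted p = 0.0466) and lost its call whichever library was left out, with adjusted p between 0.0672 and 0.247.

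Adaptors and ubiquitin ligases rose in 6 and fell in 5 of 18 tested genes (median 0.02). TICAM1, a toll-like receptor adaptor (0.59), TRAF3, a brake on the non-canonical branch (0.26), and the scaffold gene CARD10 (0.26) rose. TRAF5 (-0.30), BIRC3 and BIRC2, a close relative of BIRC3 (-0.12), fell. CARD10 and BIRC2 lost their calls in limma without trend and robust option (adjusted p = 0.0692 and 0.133). With DETA/NO library 3 left out, 2 genes of the list fell, and BIRC2 was among those that lost their call (adjusted p = 0.194). With untreated library 1 left out, 3 rose.

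Negative regulators rose in 8 and fell in 1 of 17 tested genes, TNFAIP3 being one of the 8 (median 0.11). Leaving out untreated library 2 left 7 that rose. NLRC5, described both as an activator of MHC class I genes and as an inhibitor of NF-kB, rose by 0.63, and TAX1BP1, an adaptor protein of TNFAIP3, by 0.19. The 1 that fell was ZC3H12A, an endonuclease that degrades cytokine mRNA (-0.20). It lost its call in limma without trend and robust option (adjusted p = 0.136), and also when DETA/NO library 1 and 2 was left out (adjusted p = 0.0982), which leaves 0 that fell.

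Of 27 listed NF-kB target genes outside the 10 that were tested, 11 rose, 5 fell and 11 were not called (median 0.14). The lists overlap: 7 of the 27 also stand in one of the lists above, and 4 of these (TNF, LTB, NFKBID and TNIP1) are among the 11 that rose. IL6, a cytokine gene with 25.0% of its exon length overlapped by another gene, had 986 ± 62.6 normalized reads under DETA/NO, against 236 ± 41.5 untreated (log2 fold change 2.07). With the strand setting not given, reads of overlapping genes cannot be told apart. The neutrophil chemokine CXCL8 rose by 0.70, and the early response gene IER3, with 26.5% of its exon length overlapped by an antisense gene, by 0.45. TNFAIP8 (-0.33), the surface protein gene CD83 (-0.32) and the syndecan gene SDC4 (-0.20) fell, of which SDC4 lost its call in limma without trend and robust option (adjusted p = 0.0583). Leaving out DETA/NO library 1 and 2 left 3 that fell. The number that rose was 9 without untreated library 1, 8 without untreated library 2 and 12 without untreated library 3. A further 12 listed targets were under the filter, 4 of them (CCL5, CXCL10, IRF1 and TAP1) listed at 0 in every library. Whether a 0 there means no RNA or reads not assigned in counting was not tested.

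**Figure D4:**
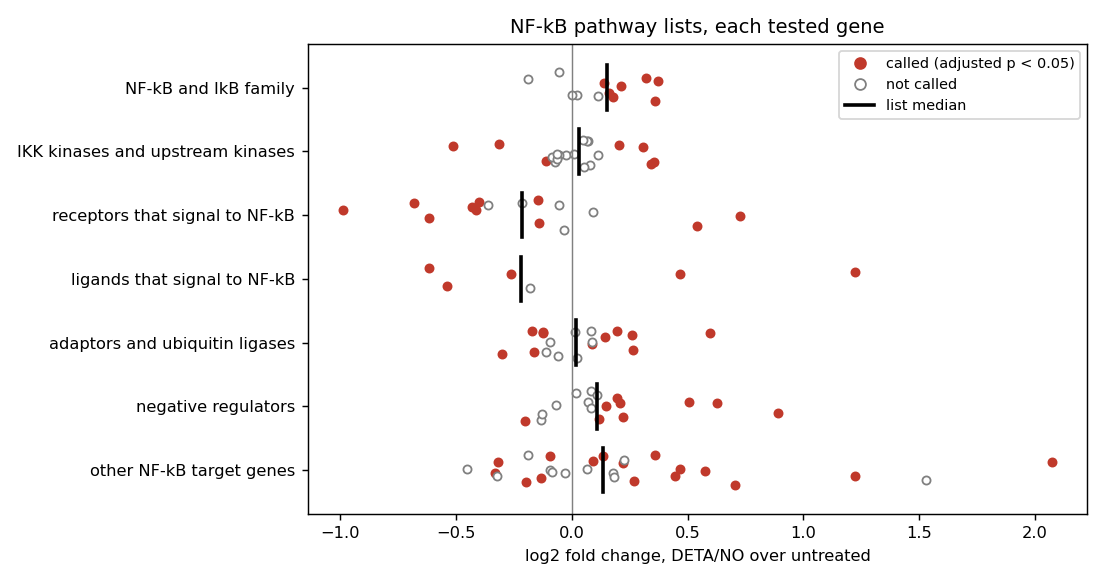
Log2 fold change of DETA/NO over untreated for each tested gene of 7 NF-kB pathway lists, 1 list per row, with genes called at an adjusted p under 0.05 filled red, other genes open and the list median as a black bar; vertical scatter within a row has no meaning. The receptor and ligand medians are -0.22 and the family median is 0.15.

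The profile most like that of TNFAIP3 was sought among 11524 other genes with a mean of at least 100, by the root mean square difference of log2 values over the 5 libraries after centring each gene on its untreated mean. Among the 6 nearest genes were CAVIN1, a caveola coat gene (0.045), ZXDB, a zinc finger gene with a close copy that could share its reads (0.048), MET, the hepatocyte growth factor receptor (0.049), PLCXD2 (0.053) and STC1, a secreted glycoprotein (0.054). These values measure likeness of level change over 5 libraries and nothing more.

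All 10 markers of a basal-like breast cancer line passed the filter. Of these, 4 were higher under DETA/NO, against 21.7% of all tested genes. The number was 5 without untreated library 1, 4 without untreated library 2 and 7 without untreated library 3. EGFR had 246909 ± 1529 normalized reads under DETA/NO, against 222201 ± 4474 untreated (0.15). Quantile normalization set this difference to 0, as it must for a gene that keeps its rank in every library. The keratin gene KRT5 had 32825 ± 1211 under DETA/NO, against 27901 ± 1799 untreated (0.24). KRT5 lost its call in limma without trend and robust option (adjusted p = 0.0689). Its log2 fold change was 0.20 with DETA/NO library 3 left out. Of 10 immune cell markers 3 passed the filter, and the list summed to 464 to 533 normalized reads in the DETA/NO libraries, against 955 to 1033 in the untreated libraries. CD14 made up most of that sum (423 ± 46.5 under DETA/NO, against 939 ± 27.7 untreated). PTPRC had 33.8 ± 0.788 under DETA/NO, against 13.3 ± 4.01 untreated, and CD3E reached at most 1.11. Of 10 fibroblast and endothelial markers only 5 passed the filter, and 3 were higher, where 21.7% of all tested genes were. This list summed to 1349 to 1399 normalized reads in the DETA/NO libraries, against 939 to 973 in the untreated libraries. The 3 higher genes were COL1A1 (0.49) and the endothelial genes CDH5 (1.20) and KDR (0.55). CDH5 had 173 ± 41.2 normalized reads under DETA/NO, against 74.0 ± 1.62 untreated. The endothelial genes VWF (0.40) and PECAM1 (-0.16) were not called. Whether these markers have a part in the changes above was not tested.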

How the data were processed

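RNA-seq of 6 samples was deposited as 1 file per sample with 45019 rows; the authors made the normalized counts (signal) in them, and each value is a gene's read count divided by a factor per library. Tools named by the submitters' processing notes are FastQC 0.11.9 and MultiQC 1.14 for quality, TopHat2 2.1.1 and Bowtie2 2.5.0.0, Subread with featureCounts 2.0.3, deepTools 3.5.1, R 4.2.2 and DESeq2 1.38.3, and the build is GRCh38. The annotation and strand setting are not given in the sources used here. All values above 0 (100%) were whole multiples of 1 step per library (tolerance 0.01), which gave back whole reads. Row names that had become dates (27 rows, 0.246% of reads) stayed in the tests.

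Genes with a mean of at least 10 were tested as log2(value + 1) with limma 3.58.1 (R 4.3.3; trend and robust eBayes), called at a Benjamini-Hochberg adjusted p under 0.05. This scale understates changes of low genes. On recovered reads edgeR 4.0.16 called 7001 genes of 16409, and DESeq2 1.42.0 was a further alternative. Also tried were TMM and quantile scaling, other pseudocounts, other filters, a block for replicate number, and omission of each library in turn. Positions and exon lengths are from GENCODE 29, promoter windows from RefSeq; no other genome sequence and no protein sequence was used here.

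The 10 genes, the gene lists and the tests were chosen with earlier results of these data known. Beyond the 10, the text names up to 3 rising and 3 falling genes per list by smallest adjusted p, genes among the 6 profiles nearest to TNFAIP3, and defining cell markers; some results under this rule are not reported here. REL, NFKBID, NFKBIB and BCL3 were named after their values were seen, to complete the family, as were TNIP1, CDH5, KDR and VWF.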

Additional observations from a re-analysis of the deposited data

How the results depend on the processing

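Over 16 alternatives, TNFAIP3, NFKB2 and TNFAIP2 kept their direction and call, and NFKBIA was called in none. Of the 10 genes 7 were called, but 3 (2 higher, 1 lower) in limma without trend and robust option. Leaving out 1 library gave 5 to 8 called, 3 to 5 higher and 1 to 3 lower. Over all genes it gave 5579 to 7077 called, against 7120. NFKBIE, at 0.02 on the log2 scale, ranged between -0.057 and 0.098 when 1 library was left out (-0.016 for untreated library 1), and was at -0.016 in the block with the shared library numbered 2. NFKBIZ, at 0.00024, ranged between -0.075 and 0.058 when 1 library was left out (-0.021 for DETA/NO library 1 and 2). It was at -0.0071 under TMM scaling, -0.031 under quantile normalization, -0.0024 in edgeR and -0.0021 in DESeq2. The cause was not tested. The median over all genes lay between -0.0074 and 0.0060 in every setting.

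Deviations of equally numbered libraries correlated at 0.029, 0.0011 and 0.030. The 2 DETA/NO libraries deviate from their mean by equal and opposite amounts, so these values are not independent. They cannot decide whether equal numbers mark a shared culture. The replicate block called 7 of the 10 genes and 6605 of all genes; with the shared library numbered 2, chosen after seeing the data, it called 7 and 6321. With 2 DETA/NO libraries, leaving out 1 assumes that the lone library varies like the untreated ones. NFKBIE rests on 314 to 364 reads per library, which limits the change that could be detected.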
